A study of Mus musculus with 8 samples.

Results

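Cells of the mouse liver progenitor line MLP-29, which are epithelial in character, were compared after 24 h in hepatocyte growth factor (HGF) with cells kept in control medium. The comparison held 4 of the series' 8 arrays, namely 2 of cells labelled HGF 24h and 2 of cells labelled CTRL, lettered a and b within each group. The 4 other arrays were of cells given HGF for 1 or 6 h and served for the estimate of spread and for setting the 24 h levels beside the earlier ones. According to the labels' protocols, every culture, controls included, was starved over 1 week and stimulated in medium with 2% bovine serum with recombinant HGF or control medium, all cultures of a run were lysed together, and a repeat of the run gave the biological replicates. The labels give no dose of HGF and no duration for the control medium, so a change with time in control medium cannot be told apart from one with HGF. All arrays came from 1 cell line, and 2 replicates a group limit the precision of every value. The description covers all genes with a probe detected on both arrays of either group, which were 7938 of 16593 genes with a named probe.

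HGF is the ligand of Met, a receptor tyrosine kinase of epithelial cells. Bound Met signals through the RAS and MAP kinase cascade, phosphatidylinositol 3-kinase and STAT3, and epithelial cells so stimulated detach from their neighbours, move and invade, a programme known as scattering or invasive growth. In liver, HGF is made mainly by non-parenchymal cells and acts on hepatocytes and progenitors, where it is known for its part in regeneration. The question put by the comparison was which transcripts differed from control cells a day after HGF was given.

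RNA was read as biotin-labelled cRNA on Illumina Mouse8 V2 bead arrays. A level here is the background corrected and quantile normalised signal of a gene's brightest probe on the log2 scale, with an offset of 16 that makes the changes of dim genes look smaller. Per array, 11569 to 11893 of 25697 probes were detected, that is, had a detection p under 0.05 against the negative control beads of that array, and the 4 arrays compared here held 11790 and 11721 (HGF 24 h) and 11644 and 11668 (control). At the edge of that rule, a probe of Ppp1r27 entered with a detection p of 0.0489 on the dimmer of its group's arrays and a probe of Fbxl22 stayed out with 0.0501. Of the 7938 genes, 7462 were detected on both arrays of both groups, 246 on both HGF 24 h arrays but not on both control arrays, and 230 the other way.

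Markers of epithelium were present on every array compared here. Krt8 and Krt18, the keratins of simple epithelia, stood between 14.96 and 15.69 on all 4 arrays, and the adherens junction gene Cdh1 at 12.17 and 12.18 after 24 h in HGF, against 12.43 and 12.57 in control cells. Of the biliary and progenitor markers, Krt19 and Sox9 were detected on all 4 arrays, Prom1 on none of them, and Epcam had no named probe. Hnf4a, a transcription factor of the hepatocyte lineage, was detected on all 4 arrays, but the hepatocyte products Alb, Afp, Ttr and Apoa1 were on none. The measured defining markers of haematopoietic (Ptprc, Tyrobp, Lyz2), endothelial (Pecam1, Cdh5, Kdr, Tek) and stellate or fibroblast cells (Des, Pdgfrb, Col1a1, Col3a1, Lrat) were not detected on any of the 4 arrays.

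At an adjusted p under 0.05, 160 genes (2.02% of 7938) were higher and 269 (3.39%) were lower after 24 h in HGF than in control cells. Of these, 30 were at least 2-fold higher and 70 at least 2-fold lower. The test was limma's moderated test over all 8 arrays with the replicate letter as a block, adjusted by Benjamini-Hochberg. With no normalization between the arrays the split was 198 higher and 187 lower (51.4% of calls higher, against 37.3%). Most changes were modest: the median size of a called log2 change was 0.76, while all genes had a median change of -0.02 and a 5th to 95th percentile range of -0.59 to 0.48. All 429 called genes moved the same way in replicate a and in replicate b, as did 5655 of all 7938 genes. The call itself favours such genes, because replicates that disagree widen the SE, so their likeness is no separate support. Both HGF 24 h arrays lay above both control arrays for 157 of the 160 higher genes, and below them for 261 of the 269 lower genes. Among all genes, 24.7% lay above in that way and 28.8% below. At the edge of the call, Pym1 (-0.54 ± 0.12, SE, adjusted p = 0.0498) was counted and Atp6v0a1 (-0.74 ± 0.16, adjusted p = 0.0501) was not.

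These calls rest on the pairing of the arrays by replicate letter. In the same limma fit without the block no gene was called at an adjusted p under 0.05, the smallest adjusted p was 0.0814, and 1611 genes had an unadjusted p under 0.05, among them 399 of the 429. No gene was called by limma either when HGF 24 h replicate a or control replicate b was left out (1129 and 1570 genes at an unadjusted p under 0.05). Without HGF 24 h replicate b 2 genes were higher and 13 lower, and without control replicate a 7 were higher and 38 lower. Leaving out any array of the 1 or 6 h groups gave 60 to 76 higher and 122 to 138 lower genes. Every count below of genes called between HGF 24 h and control is therefore 0 in the fit without the block. For the comparisons that involve 1 or 6 h no count without the block was made. Many genes named below as called, Timp1, Myc, Lif, Tff1 and Cav2 among them, passed in none of the fits that left out an array. The plot of the change in each replicate sets the replicates side by side.

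**Figure D1:**
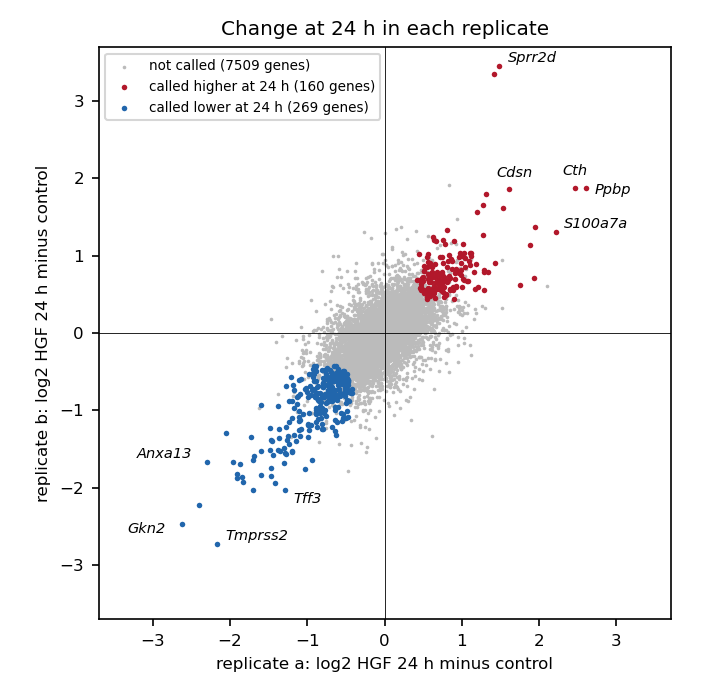
Each point is a gene, with its log2 difference HGF 24 h minus control in replicate a on the horizontal axis and in replicate b on the vertical axis. Red points are the 160 genes called higher, blue points the 269 called lower and grey points the genes not called. All called genes lie in the quadrants where both replicates moved the same way, which the call itself favours.

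Of the 12 steepest rises, 5 were in genes of the cornified envelope and the epidermal barrier. The Sprr2 genes, which sit side by side on chromosome 3 and encode small proline-rich proteins that are cross-linked into the envelope of squamous cells, gave the 2 largest rises. Sprr2d had levels of 8.99 and 9.91 after 24 h in HGF, against 7.51 and 6.46 in control cells, a log2 change of 2.47 ± 0.50 (SE, n = 2 arrays a group, adjusted p = 0.0438). The groups did not overlap, but the difference was much larger in replicate b than in replicate a, and the SE is among the widest of the named genes. Without control replicate a the change was 3.46, and without control replicate b it was 1.47 and no longer passed (adjusted p = 0.0974). Sprr2e stood at 8.05 and 9.38 in HGF, against 6.64 and 6.02 in control cells (2.38 ± 0.45, adjusted p = 0.0405), and without control replicates a and b in turn it gave 3.25 and 1.49. Sprr2d and Sprr2e were each called in 2 of the 8 fits that left out an array. Sprr2k stood at 7.58 and 7.48 in HGF, against 6.31 and 5.82 in control cells, where it was detected on 1 of 2 arrays (1.47 ± 0.19, adjusted p = 0.0175). Members of this family are near copies of each other and a probe may read more than 1 of them, so the copy behind each value is uncertain. Sprr2a1, on the same chromosome, stood at 10.03 and 10.20 against 10.27 and 10.52 (-0.28 ± 0.11, adjusted p = 0.176) and did not pass the test.

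The family is shown by its promoters, because the 3 called members lie within a short stretch of chromosome 3 and moved together. The windows are from RefSeq (GRCm38.p6) and run 5′ to 3′ on the gene's strand, from 250 bases before to 50 bases after the gene start. Capitals mark TGANTCA, which was searched for as the AP-1 motif and is a loose form of it, since N allows any base. The pattern reads the same on both strands. The Sprr2 windows were chosen after the values were seen, with those of Ppbp and Mmp3, which are described below. That all windows shown hold the motif is therefore no measure of its share among genes. The window of Sprr2a1, which was not called, is not shown. The Sprr2d window is chr3:92338890-92339189, the Sprr2e window chr3:92351893-92352192, the Sprr2k window chr3:92432332-92432631, the Ppbp window chr5:90768268-90768567 and the Mmp3 window chr9:7445572-7445871, all on the plus strand.
Sprr2d: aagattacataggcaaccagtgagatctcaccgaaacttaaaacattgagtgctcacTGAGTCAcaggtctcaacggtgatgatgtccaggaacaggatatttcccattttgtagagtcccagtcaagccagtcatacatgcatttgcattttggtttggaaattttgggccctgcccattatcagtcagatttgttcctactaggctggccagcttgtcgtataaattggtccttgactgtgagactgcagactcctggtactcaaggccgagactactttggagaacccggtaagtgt
Sprr2e: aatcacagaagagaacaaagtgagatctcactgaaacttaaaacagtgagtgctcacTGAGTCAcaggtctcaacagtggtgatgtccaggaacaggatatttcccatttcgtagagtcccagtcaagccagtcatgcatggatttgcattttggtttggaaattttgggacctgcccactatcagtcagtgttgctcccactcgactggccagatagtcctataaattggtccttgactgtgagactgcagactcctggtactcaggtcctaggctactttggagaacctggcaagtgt
Sprr2k: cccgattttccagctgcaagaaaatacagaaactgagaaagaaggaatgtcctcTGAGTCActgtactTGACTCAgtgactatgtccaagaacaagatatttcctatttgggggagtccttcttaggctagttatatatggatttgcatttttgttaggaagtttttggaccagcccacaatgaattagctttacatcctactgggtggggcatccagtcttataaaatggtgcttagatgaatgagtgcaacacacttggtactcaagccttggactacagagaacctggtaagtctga
Ppbp: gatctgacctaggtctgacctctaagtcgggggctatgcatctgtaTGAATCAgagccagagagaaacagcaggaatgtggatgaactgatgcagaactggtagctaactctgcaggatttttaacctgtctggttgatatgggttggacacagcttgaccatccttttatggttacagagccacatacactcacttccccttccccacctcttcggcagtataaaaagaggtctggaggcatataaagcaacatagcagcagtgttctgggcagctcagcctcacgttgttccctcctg
Mmp3: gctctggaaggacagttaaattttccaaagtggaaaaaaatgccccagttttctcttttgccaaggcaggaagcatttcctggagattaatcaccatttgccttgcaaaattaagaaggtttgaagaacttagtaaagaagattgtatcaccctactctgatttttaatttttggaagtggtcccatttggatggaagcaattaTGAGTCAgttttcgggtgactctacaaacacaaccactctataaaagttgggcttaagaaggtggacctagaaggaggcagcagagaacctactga

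The windows of Sprr2d and Sprr2e were identical at 264 of 300 positions (88%) and each held 1 match that started 193 bases before the gene start. The Sprr2k window, identical to that of Sprr2d at 36% of positions without gaps, held 2 matches, starting 196 and 182 bases before. Ppbp held 1 match at 204 bases and Mmp3 1 match at 46 bases. The match of Ppbp (TGAATCA) had A in the middle, where those of the other windows shown had G or C. The pattern with any middle base was present in 7.81% of all 32851 windows of this length. By gene, it was in 17 of 137 called-higher genes with a window (12.4%), in 18 of 209 called-lower genes (8.61%) and in 402 of 6190 genes that were not called (6.49%). Searched likewise on both strands were 6 other motifs, given here as shares of called-higher genes, called-lower genes and genes not called. They were 36.5%, 42.1% and 44.5% for CCAAT, 14.6%, 18.2% and 13.7% for the cell cycle motif TTTGAA, and 13.1%, 8.13% and 12.2% for the E-box CACGTG. The shares were 3.65%, 5.26% and 3.3% for the core of the interferon-stimulated response element, 0.73%, 0.957% and 2.15% for an NF-kB motif, and 0%, 0% and 0.0646% for a sterol regulatory element motif, which are named without their letters. Of all windows, 37.4% held CCAAT, 17.9% TTTGAA, 7.15% CACGTG, 3.44% the interferon core, 1.63% the NF-kB motif and 0.0913% the sterol motif. A match is a description of these letters and not a site of binding.

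Other barrier genes rose with them. Cdsn, the gene of corneodesmosin, an adhesive protein of the outer epidermis, stood at 7.73 and 9.18 in HGF, against 6.13 and 7.32 in control cells (1.73 ± 0.29, adjusted p = 0.0283). S100a7a, a psoriasin-related calcium-binding protein gene, stood at 10.11 and 10.38 in HGF, against 7.90 and 9.07 in control cells (1.76 ± 0.36, adjusted p = 0.0434). Neither gene had overlapping groups. In the list of cornified envelope and squamous genes 3 of 13 measured members were higher and 0 lower (23.1%, against 2.02% of all genes), with a median log2 change of 0.38. Below the threshold were the basal keratin Krt14 (0.81 ± 0.28, adjusted p = 0.138), Sprr1b (0.53 ± 0.13, adjusted p = 0.0638) and the cross-linker of desmosomes and keratins Ppl (-0.46 ± 0.11, adjusted p = 0.0636). The list did not hold Sprr2e and Sprr2k, which entered as steep changes.

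**Figure D2:**
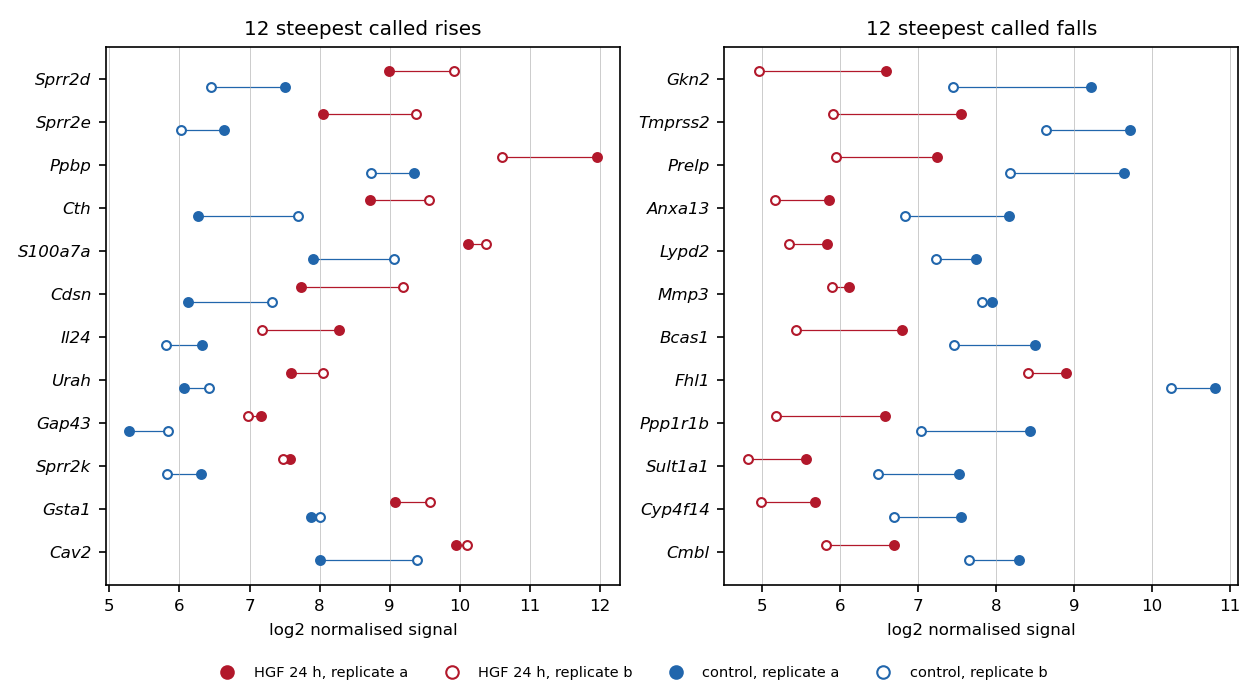
Levels on each array (log2 normalised signal, horizontal axis) of the 12 steepest called rises (left) and the 12 steepest called falls (right) among genes whose groups did not overlap, with HGF 24 h in red above control in blue. Filled points are replicate a and open points replicate b. The 2 groups stand apart for each gene, while the replicates of a group differ by over 1 log2 unit for several, Gkn2 and Ppbp among them.

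Genes of secreted proteins and enzymes made up most of the other steep rises. Ppbp, the gene of the CXC chemokine Cxcl7, stood at 11.95 and 10.61 in HGF, against 9.34 and 8.73 in control cells (2.25 ± 0.36, adjusted p = 0.027). Without HGF 24 h replicate a the change of Ppbp was 1.08 (adjusted p = 0.27), and without HGF 6 h replicate b it was 1.53 (adjusted p = 0.0759). Cth, the gene of cystathionine gamma-lyase, which makes cysteine from cystathionine, stood at 8.72 and 9.56 in HGF, against 6.26 and 7.69 in control cells. Its log2 change of 2.17 ± 0.17 (adjusted p = 0.00544) had the narrowest SE of the 12 steepest rises. Replicate b was the higher one in both groups, and the change was 2.46 in replicate a and 1.88 in replicate b. Il24, the gene of an interleukin-10 family cytokine, stood at 8.27 and 7.18 in HGF, against 6.33 and 5.81 in control cells with detection on 1 of 2 arrays (1.66 ± 0.24, adjusted p = 0.0208). Urah, which encodes an enzyme of urate breakdown, had a change of 1.58 ± 0.21 (adjusted p = 0.0183). Gap43, the gene of a growth cone protein, was not detected in control cells and rose at least 2.28-fold (adjusted p = 0.0222). Gsta1, a glutathione transferase gene, had a change of 1.38 ± 0.21 (adjusted p = 0.0225). The caveolin gene Cav2 had 1.32 ± 0.28 (adjusted p = 0.0473), with levels of 9.94 and 10.10 in HGF against 8.01 and 9.38 in control cells. It was called in 0 of the 8 fits that left out an array, with changes of 0.76 to 1.89. Gsta1 also has near-identical copies that its probe may read.

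The steepest falls included gastric and intestinal epithelial genes. Gkn2, the gene of gastrokine 2, a secreted protein of the stomach lining, stood at 6.59 and 4.97 in HGF, against 9.21 and 7.44 in control cells. It was not above background on HGF 24 h array b. The log2 change was -2.55 ± 0.17 (adjusted p = 0.00461), and replicate a was higher than replicate b in both groups. Tmprss2, the gene of a transmembrane serine protease of epithelia, stood at 7.56 and 5.91 in HGF, against 9.72 and 8.64 in control cells (-2.45 ± 0.28, adjusted p = 0.0114). Anxa13, an annexin gene of intestine and kidney epithelium, stood at 5.87 and 5.17 in HGF, where it was above background on 1 of 2 arrays, against 8.16 and 6.84 in control cells (-1.98 ± 0.38, adjusted p = 0.0405). Without HGF 24 h replicate a its change was -1.37 (adjusted p = 0.191), and without replicate b -2.59 (adjusted p = 0.0753).

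Below background after 24 h in HGF were Lypd2, at least 3.12-fold lower (adjusted p = 0.00707), the sulfotransferase gene Sult1a1, at least 2.23-fold lower (adjusted p = 0.00544), and the cytochrome gene Cyp4f14, at least 2.42-fold lower (adjusted p = 0.01). The small leucine-rich proteoglycan gene Prelp fell by 2.31 ± 0.21 (adjusted p = 0.00697). Fhl1, which encodes a LIM-domain protein of the cytoskeleton, fell by 1.86 ± 0.14 (adjusted p = 0.00488). Also among the 12 steepest falls were Bcas1, which fell by 1.87 ± 0.25, Ppp1r1b, the gene of a protein phosphatase inhibitor, which fell by 1.85 ± 0.25 (adjusted p = 0.0192 for both), and Cmbl, the gene of a hydrolase, which fell by 1.72 ± 0.13 (adjusted p = 0.00488). Bcas1, Ppp1r1b and Cmbl were above background on 1 of 2 HGF 24 h arrays.

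The list of secretory and brush border epithelium had the lowest median of all lists with 5 or more measured members, at -0.64, against -0.02 for all genes. Of its 13 measured members 0 were higher and 5 lower (38.5%, against 3.39% of all genes). Among them were the trefoil factors, secreted peptides that protect and repair mucosal surfaces and whose 3 genes lie next to each other on chromosome 17. Tff3 stood at 12.93 and 12.13 in HGF, against 14.22 and 14.16 in control cells (-1.66 ± 0.18, adjusted p = 0.0105). Tff2 stood at 14.20 and 13.70 in HGF, against 15.01 and 14.88 in control cells (-0.99 ± 0.14, adjusted p = 0.0208). Tff1 stood at 12.99 and 12.04 in HGF, against 13.60 and 12.71 in control cells, so that the groups overlapped while the change was alike in both replicates (-0.64 ± 0.11, adjusted p = 0.035). All 3 trefoil genes were lower, Tff3 most.

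Of the brush border genes, Cdhr5, a cadherin that links neighbouring microvilli, stood at 6.92 and 6.51 in HGF, against 8.53 and 8.03 in control cells (-1.56 ± 0.11, adjusted p = 0.00461). Vil1, the gene of the actin bundler villin, stood at 7.67 and 6.74 in HGF, against 8.82 and 8.13 in control cells (-1.27 ± 0.17, adjusted p = 0.0192). Both kept their groups apart. Gkn1, the paralog of Gkn2, had a change of -0.99 ± 0.23 (adjusted p = 0.0565) and did not pass the test. The siderophore-binding protein gene Lcn2 stood at 13.32 and 14.65 in HGF, against 13.70 and 13.84 in control cells (0.21 ± 0.30), and its groups overlapped. Gkn2 and Cdhr5 were among 9 named genes that passed in 6 of the 8 fits that left out an array.

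**Figure D3:**
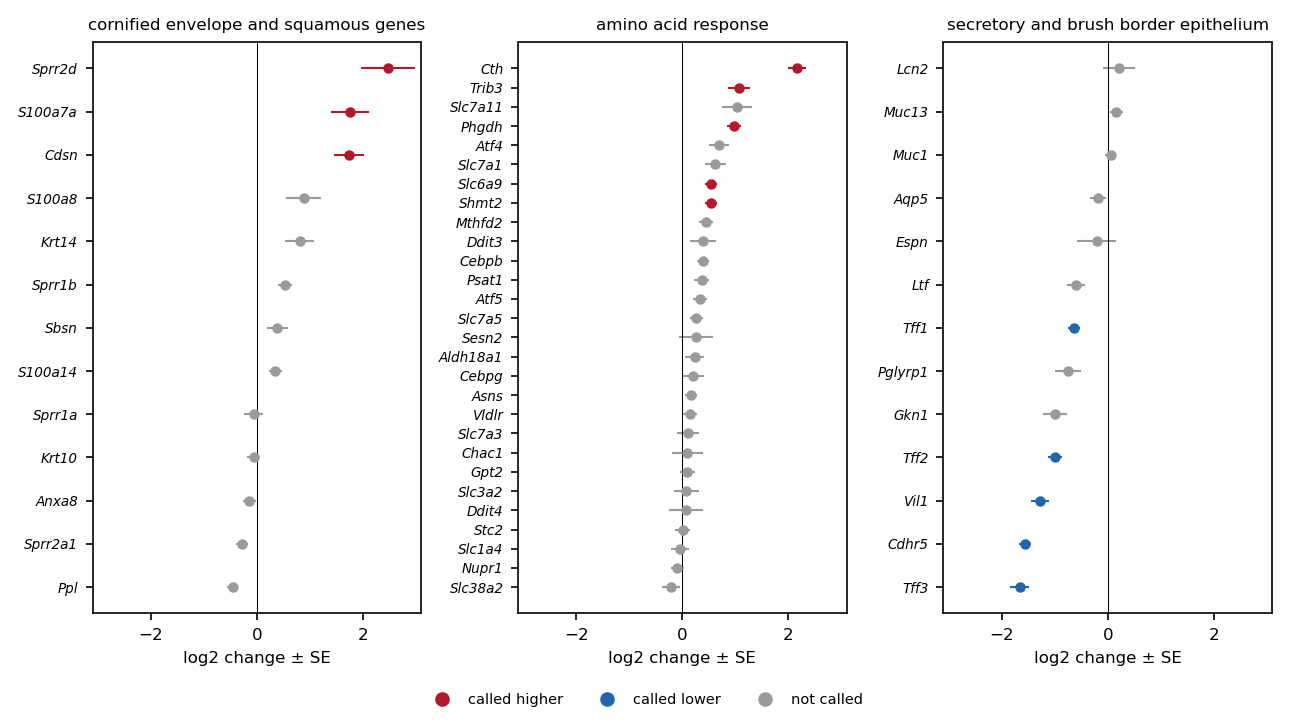
Log2 change HGF 24 h minus control with its SE (horizontal axis) for each measured member of the cornified envelope and squamous list (left), the amino acid response list (middle) and the secretory and brush border list (right). Red points were called higher, blue points called lower and grey points not called. Calls in the left and middle lists are all to the right of 0 and calls in the right list all to the left.

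Several genes of amino acid supply rose as well. They belong to the amino acid response, in which the factor Atf4 raises genes of amino acid synthesis, import and tRNA charging when amino acids run short or the endoplasmic reticulum is stressed. Of 28 measured members 5 were higher (17.9%, against 2.02% of all genes) and 0 lower, with a median log2 change of 0.26, and 25 of 28 had a positive value. Cth, described above, led the list. Trib3, the gene of a pseudokinase that is a target of Atf4 and restrains it, stood at 9.89 and 10.46 in HGF, against 8.78 and 9.43 in control cells (1.07 ± 0.21, adjusted p = 0.0423). Phgdh, which encodes the entry enzyme of serine synthesis, stood at 12.57 and 12.55 in HGF, against 11.40 and 11.76 in control cells (0.97 ± 0.13, adjusted p = 0.0192). Both genes had separate groups. The glycine transporter Slc6a9 (0.55 ± 0.11, adjusted p = 0.0439) and the mitochondrial serine hydroxymethyltransferase Shmt2 (0.54 ± 0.11, adjusted p = 0.0456) rose by less. Atf4 itself gave 0.69 ± 0.19 (adjusted p = 0.0872), the cystine transporter Slc7a11 1.04 ± 0.29 (adjusted p = 0.0879) and asparagine synthetase Asns 0.16 ± 0.11 (adjusted p = 0.401), none past the threshold.

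Lists of protein synthesis had positive medians with few calls in the fit used here. Of 18 aminoacyl tRNA synthetases 1 was higher (5.56%, against 2.02% of all genes) and 0 lower, with a median of 0.27. The member called was Eprs, which charges tRNAs for glutamate and proline (0.73 ± 0.12, adjusted p = 0.026). Of 45 ribosome biogenesis genes 1 was higher (2.22%, close to the 2.02% of all genes) and 0 lower. Their median was 0.22, and 36 had a positive value. Nop56, a core protein of box C/D ribonucleoproteins, was the member called (0.75 ± 0.11, adjusted p = 0.021). Rrp12 (0.52 ± 0.12, adjusted p = 0.0594) and Gnl3 (0.48 ± 0.13, adjusted p = 0.0764) did not pass. With the authors' normalized values 8 ribosome biogenesis genes and 6 tRNA synthetases were higher, when 326 of all 7938 genes were. Under median scaling of the arrays 1 gene of each list was higher. Among 51 cytosolic ribosomal proteins 0 were called, with a median of 0.04, which was -0.07 under median scaling of the arrays. Of 18 chaperones of the endoplasmic reticulum 1 was higher (5.56%, against 2.02% of all genes) and 0 lower. It was the calcium-binding lectin chaperone Calr (0.70 ± 0.15, adjusted p = 0.0473). Of 31 proteasome genes 0 were called.

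**Figure D4:**
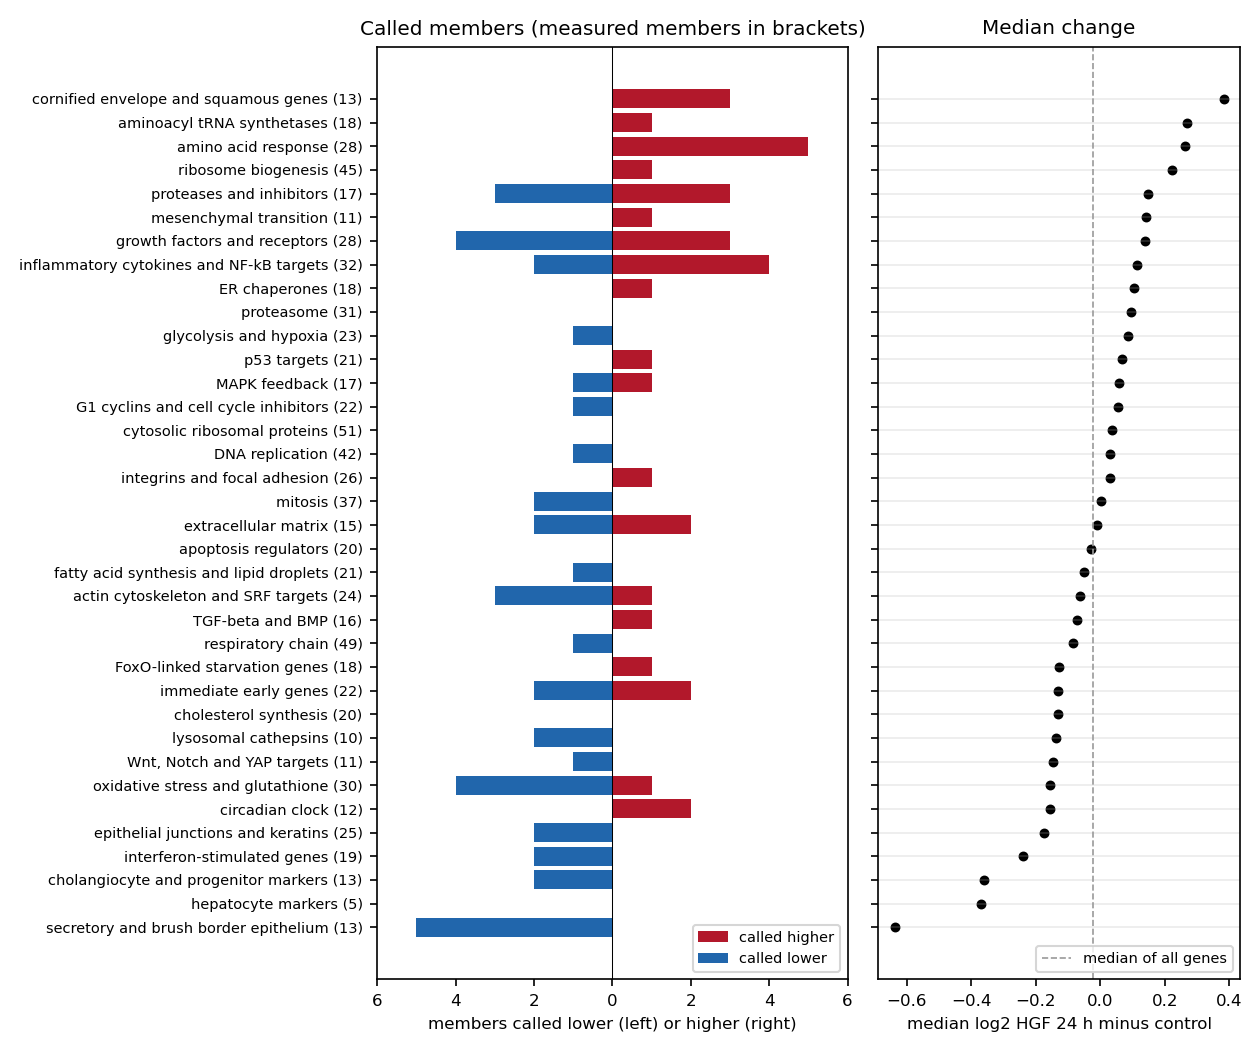
For each list with 5 or more measured members (number in brackets), the members called lower (bars to the left) and higher (bars to the right) after 24 h in HGF, and, on the right, the median log2 change HGF 24 h minus control with the median of all genes as a dashed line. Lists are ordered by their median, from 0.38 for the squamous list to -0.64 for the secretory list.

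The proteases and their inhibitors, which carry out and limit the matrix breakdown of invading cells, were divided. Of 17 measured members 3 were higher and 3 lower (17.6% each, against 2.02% higher and 3.39% lower of all genes). Higher were the metalloproteinase inhibitors Timp3 (0.99 ± 0.18, adjusted p = 0.0366) and Timp1 (0.64 ± 0.13, adjusted p = 0.0423) and the secreted serine protease gene Htra1 (0.75 ± 0.11, adjusted p = 0.0235). Timp1 stood at 11.90 and 11.82 in HGF, against 11.18 and 11.25 in control cells, with groups apart. Lower were Tmprss2, given above, the inhibitor Timp2 (-0.55 ± 0.11, adjusted p = 0.0423) and Mmp3. Mmp3, the gene of stromelysin 1, stood at 6.12 and 5.90 in HGF, against 7.95 and 7.83 in control cells (-1.88 ± 0.21, adjusted p = 0.0114). The replicates of each group lay close together for Mmp3. The collagenase gene Mmp13 differed from control by 0.21 in replicate a and by 1.38 in replicate b (0.79 ± 0.50, adjusted p = 0.363), so the difference between its replicates was larger than its mean change. The urokinase receptor gene Plaur gave 0.15 ± 0.14 (adjusted p = 0.559), and Mmp10 and the urokinase gene Plau were not detected on both arrays of either group. Of 10 lysosomal cathepsins and their inhibitors 0 were higher and 2 lower (20%, against 3.39% of all genes). The 2 were Ctsh (-1.11 ± 0.12, adjusted p = 0.0106) and Ctsz (-0.73 ± 0.12, adjusted p = 0.0283), which encode lysosomal cysteine proteases.

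Matrix genes moved in both directions. Of 15 measured members 2 were higher and 2 lower (13.3% each, against 2.02% higher and 3.39% lower of all genes), with a median of -0.01. The fibrillar collagen chain Col5a1 (0.70 ± 0.13, adjusted p = 0.0363) and the anchoring fibril collagen Col7a1 (0.57 ± 0.12, adjusted p = 0.0449) rose. The 2 collagen VI chains fell: Col6a1 stood at 11.61 and 10.97 in HGF, against 12.73 and 11.79 in control cells (-0.97 ± 0.14, adjusted p = 0.0222), and Col6a2 gave -1.02 ± 0.16 (adjusted p = 0.027) with overlapping groups and signal above background on 1 of 2 HGF 24 h arrays. Of 26 integrin and focal adhesion genes 1 was higher (3.85%, against 2.02% of all genes) and 0 lower. It was Tln1, the gene of talin 1, which links integrins to actin and was not detected in control cells, at least 1.72-fold higher (adjusted p = 0.0357).

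Of 25 junction and keratin genes 0 were higher and 2 lower (8%, against 3.39% of all genes), with a median of -0.18: the pore-forming claudin Cldn2 (-0.80 ± 0.13, adjusted p = 0.0283) and the tight junction scaffold Tjp1 (-0.56 ± 0.12, adjusted p = 0.0482). E-cadherin, Cdh1, gave -0.33 ± 0.11 (adjusted p = 0.135), Krt19 -0.47 ± 0.12 (adjusted p = 0.0782) and Krt7 -0.65 ± 0.14 (adjusted p = 0.0501), none past the threshold. Of 11 genes of the mesenchymal transition 1 was higher (9.09%, against 2.02% of all genes) and 0 lower. It was Vim, the intermediate filament gene vimentin, at 14.45 and 14.53 in HGF, against 13.71 and 13.90 in control cells (0.69 ± 0.12, adjusted p = 0.0337). Snai1, a repressor of Cdh1, gave 0.35 ± 0.17 (adjusted p = 0.254).

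Among 24 actin and SRF target genes 1 was higher and 3 were lower (4.17% and 12.5%, against 2.02% and 3.39% of all genes). The higher one was the tropomyosin Tpm3 (0.62 ± 0.14, adjusted p = 0.0498). The lower ones were Fhl1, given above, the actin cross-linker Lima1 (-1.21 ± 0.12, adjusted p = 0.00794) and the actin monomer binder Tmsb4x (-0.70 ± 0.13, adjusted p = 0.0403). The median of this list was -0.06.

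Ligands and receptors also went both ways. Of 28 measured growth factors and receptors 3 were higher and 4 lower (10.7% and 14.3%, against 2.02% and 3.39% of all genes), with a median of 0.14. Higher were the insulin-like growth factor binding protein Igfbp3, not detected in control cells and at least 1.36-fold higher (adjusted p = 0.0114), the activin subunit Inhba (0.75 ± 0.15, adjusted p = 0.0423) and the ephrin receptor Epha2 (0.73 ± 0.14, adjusted p = 0.041). Lower were the ligands Fgf1 (-0.96 ± 0.15, adjusted p = 0.0235), Sema3c (-0.63 ± 0.12, adjusted p = 0.0405) and Pdgfb (-0.52 ± 0.11, adjusted p = 0.0456) and the receptor Fgfr2 (-0.67 ± 0.13, adjusted p = 0.0405). Met itself stood at 8.22 and 8.04 in HGF, against 8.32 and 7.68 in control cells (0.13 ± 0.16, adjusted p = 0.654), with overlapping groups. Mst1r, which encodes the related receptor Ron, gave 0.21 ± 0.13 (adjusted p = 0.343), and the EGF receptor ligand Hbegf 0.15 ± 0.11 (adjusted p = 0.457).

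Of 22 immediate early genes, the first to respond to growth factors, 2 were higher and 2 lower (9.09% each, against 2.02% higher and 3.39% lower of all genes), with a median of -0.13. Ier3, a regulator of survival and ERK signalling, stood at 12.94 and 13.30 in HGF, against 12.04 and 12.10 in control cells (1.05 ± 0.13, adjusted p = 0.015), with groups apart. Myc, the growth-promoting transcription factor, gave 0.66 ± 0.12 (adjusted p = 0.0358). Lower were the factors Klf2 (-1.64 ± 0.27, adjusted p = 0.0288, above background on 1 of 2 HGF 24 h arrays) and Jund (-0.65 ± 0.13, adjusted p = 0.0423), the AP-1 subunit JunD. Fos (-0.27 ± 0.32, adjusted p = 0.642), Egr1 (-0.25 ± 0.20, adjusted p = 0.485) and Fosl1 (0.64 ± 0.21, adjusted p = 0.131) did not pass. Of 17 genes of MAP kinase feedback (5.88% called in each direction) 1 was higher, the MAP kinase phosphatase Dusp4 (0.80 ± 0.15, adjusted p = 0.0405), and 1 lower, its relative Dusp10 (-0.75 ± 0.13, adjusted p = 0.0302). The ERK phosphatase Dusp6 gave 0.03 ± 0.15 (adjusted p = 0.933), and the EGF receptor inhibitor Errfi1 0.56 ± 0.15 (adjusted p = 0.0816).

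Of 32 inflammatory cytokines and NF-kB targets 4 were higher and 2 lower (12.5% and 6.25%, against 2.02% and 3.39% of all genes), with a median of 0.11. Besides Ppbp and Il24, the acute phase gene Saa3 rose (1.56 ± 0.24, adjusted p = 0.0249). Its levels were 7.84 and 10.35 in HGF, against 6.53 and 8.55 in control cells, so the groups overlapped while each replicate rose. Lif, a cytokine of the interleukin-6 family, gave 0.52 ± 0.11 (adjusted p = 0.046). Il18, the gene of an interferon-inducing cytokine, stood at 6.84 and 6.65 in HGF, against 8.25 and 8.59 in control cells (-1.68 ± 0.25, adjusted p = 0.0222). Vcam1, which encodes a ligand of leukocyte integrins, gave -1.17 ± 0.21 (adjusted p = 0.0357). Of 19 interferon-stimulated genes 0 were higher and 2 lower (10.5%, against 3.39% of all genes), with a median of -0.24. The 2 were the antiviral gene Ifit2 (-0.94 ± 0.13, adjusted p = 0.0208) and Ddx58, the gene of the RNA sensor RIG-I (-0.75 ± 0.16, adjusted p = 0.0469).

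Genes of glutathione and drug handling moved in both directions. Of 30 genes of oxidative stress and glutathione 1 was higher, Gsta1 (3.33%, against 2.02% of all genes). Another 4 were lower (13.3%, against 3.39% of all genes), and the median was -0.16. With no normalization between the arrays 3 were higher and 2 lower, and with no detection filter 1 and 1. Gsta3, a glutathione transferase gene, stood at 8.55 and 8.17 in HGF, against 10.28 and 9.51 in control cells (-1.54 ± 0.15, adjusted p = 0.00799). Gsta4 (-0.69 ± 0.14, adjusted p = 0.0423), Gclc, the catalytic subunit of the enzyme that sets the rate of glutathione synthesis (-0.64 ± 0.12, adjusted p = 0.0419), and the epoxide hydrolase Ephx1 (-0.60 ± 0.11, adjusted p = 0.0405) fell as well. Transferases of the same class thus moved in opposite directions.

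In 3 lists of energy and lipid genes 1 member each was called, 4.76%, 4.35% and 2.04% of those measured, against 3.39% of all genes called lower. Of 21 genes of fatty acid synthesis and lipid droplets only Plin4, a lipid droplet coat protein, was called (-0.86 ± 0.17, adjusted p = 0.0419). Of 23 glycolysis and hypoxia genes only the aldolase Aldoc was called (-0.82 ± 0.11, adjusted p = 0.0193, above background on 1 of 2 HGF 24 h arrays). It went against most of that list, of which 17 had a positive value (median 0.09). Of 49 respiratory chain genes only the complex IV subunit Cox7a2 was called (-0.57 ± 0.12, adjusted p = 0.046). Of 20 cholesterol synthesis genes 0 were called, with Hmgcs1 at -0.30 ± 0.12 and Sqle at 0.07 ± 0.12 (adjusted p = 0.174 and 0.729). Of 18 FoxO-linked starvation genes 1 was higher (5.56%, against 2.02% of all genes), the arrestin Arrdc4 (0.66 ± 0.14, adjusted p = 0.0446). The median of these genes was -0.13, and 8 of the 18 had a positive value. Txnip gave 0.26 ± 0.34 (adjusted p = 0.666).

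Of 37 mitosis genes 0 were higher and 2 lower (5.41%, against 3.39% of all genes), with a median of 0.00: the kinetochore subunit Spc25 (-0.78 ± 0.11, adjusted p = 0.0208) and the kinase Melk (-0.71 ± 0.15, adjusted p = 0.0434). Of 42 DNA replication genes 1 was lower (2.38%), the dUTPase Dut (-0.83 ± 0.13, adjusted p = 0.0254). Of 22 G1 cyclins and cell cycle inhibitors 1 was lower (4.55%), Cdkn1c, which encodes the inhibitor p57, at -0.74 ± 0.16 (adjusted p = 0.0488) with overlapping groups. The cyclin Ccnd1 gave 0.12 ± 0.12 (adjusted p = 0.576), the inhibitor Cdkn1a 0.11 ± 0.12 (adjusted p = 0.627), the kinase Cdk1 -0.09 ± 0.11 (adjusted p = 0.638) and the replication helicase Mcm5 0.15 ± 0.16 (adjusted p = 0.585). Of 21 p53 targets 1 was higher (4.76%, against 2.02% of all genes), the kinase Plk3 (0.63 ± 0.12, adjusted p = 0.0419, overlapping groups). Of 20 apoptosis regulators 0 were called.

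Of 12 clock genes 2 were higher (16.7%, against 2.02% of all genes) and 0 lower. The 2 were Ciart, a repressor of the core clock (0.85 ± 0.17, adjusted p = 0.042), and the clock output factor Nfil3 (0.74 ± 0.16, adjusted p = 0.0489). Only 3 of the 12 had a positive value, and the list's median was -0.16, against -0.02 for all genes. Both calls were lost under median scaling and with no detection filter, and leaving out an array in turn Ciart was called in 2 of 8 fits and Nfil3 in 0. Of 11 Wnt, Notch and YAP genes 1 was lower (9.09%, against 3.39% of all genes), the receptor Notch1 (-0.60 ± 0.13, adjusted p = 0.0479). Of 16 TGF-beta and BMP genes 1 was higher (6.25%, against 2.02% of all genes), Inhba, given above.

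Markers of cell identity were lower where they were called. Of 13 measured cholangiocyte and progenitor markers 0 were higher and 2 lower (15.4%, against 3.39% of all genes), with a median of -0.36. Sox9, a transcription factor of bile duct and progenitor cells, stood at 6.87 and 6.17 in HGF, against 8.23 and 7.41 in control cells (-1.31 ± 0.16, adjusted p = 0.015). The water channel gene Aqp1 stood at 12.83 and 11.90 in HGF, against 13.81 and 13.25 in control cells (-1.17 ± 0.14, adjusted p = 0.015). The summed linear signal of the 20 markers with a named probe was 43140 and 39440 in HGF, against 57090 and 49000 in control cells. Fewer cells of a kind and less RNA per cell cannot be told apart in such sums.

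Of 30 hepatocyte markers with a named probe 4 were detected on both HGF 24 h arrays and 5 on both control arrays, and 0 were called. Hnf4a gave -0.40 ± 0.13 (adjusted p = 0.123). Of 16 haematopoietic markers 1 and 2 were detected on both arrays of HGF 24 h and control cells, of 14 endothelial markers 1 in each group, and of 16 stellate and fibroblast markers 0 in each, with 0 called in all of them. The summed signal of the haematopoietic markers, which came almost wholly from Cd14, was 15470 and 16140 in HGF, against 15040 and 15320 in control cells. That of the endothelial markers was 1326 and 1190, against 1340 and 1213, and that of the stellate and fibroblast markers 565.8 and 541.5, against 522.1 and 573.8.

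The same genes were followed over the series, with all times set against the same control arrays. Among the 7938 genes 8.79% were called against control at 1 h and 28.7% at 6 h, and 14% and 19.2% were called between 24 h and 1 h and between 24 h and 6 h. Mmp3, at 7.95 and 7.83 in control cells, stood at 10.79 and 10.46 at 1 h, at 12.71 and 13.25 at 6 h, and at 6.12 and 5.90 at 24 h. Its 24 h level was thus below that of control cells and 6.97 ± 0.21 log2 units below that of 6 h (adjusted p = 4.22e-05). Il24 stood at 6.31 and 6.15 at 1 h, 11.75 and 11.68 at 6 h, and 8.27 and 7.18 at 24 h, and differed between 24 h and 6 h by -3.99 ± 0.24 (adjusted p = 0.000625). It stayed above control at 24 h while well under its 6 h level. Timp1 (-1.58 ± 0.13, adjusted p = 0.000921) and Igfbp3 (-1.72 ± 0.12, adjusted p = 0.000674) were likewise lower at 24 h than at 6 h.

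**Figure D5:**
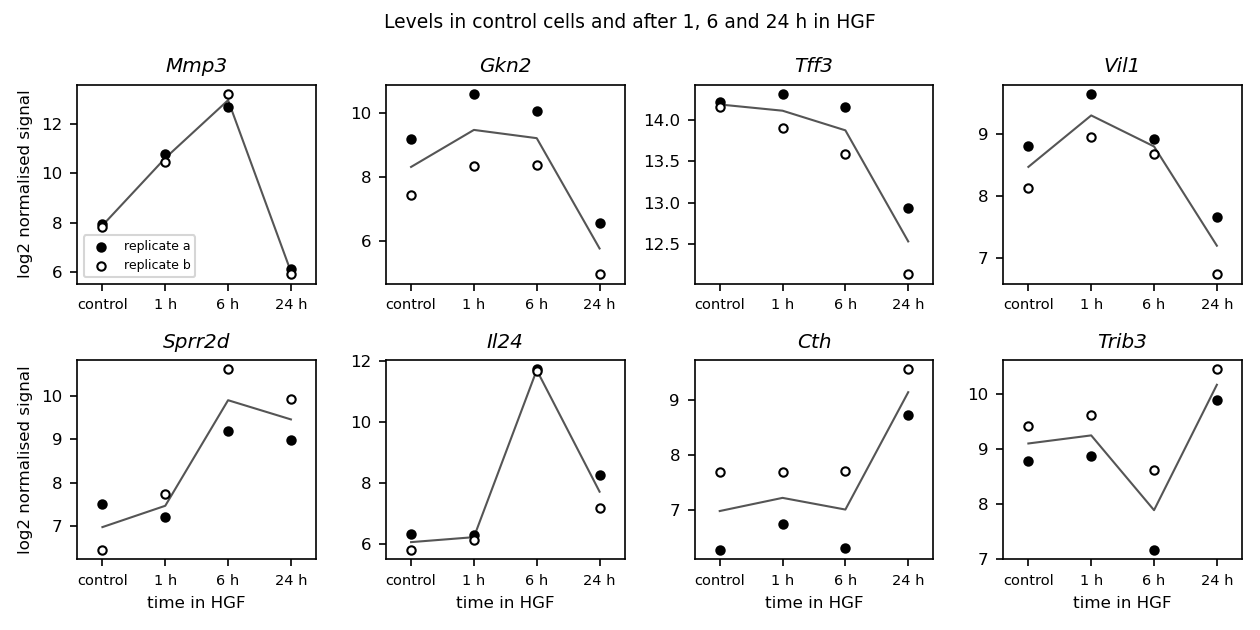
Levels (log2 normalised signal, vertical axis, a scale of its own in each panel) of 8 genes in control cells and after 1, 6 and 24 h in HGF. Filled points are replicate a, open points replicate b and lines join the means of the 2 replicates. Mmp3 and Il24 are highest at 6 h, Sprr2d is high at 6 and 24 h, Cth and Trib3 are highest at 24 h, and Gkn2, Tff3 and Vil1 are lowest at 24 h.

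The Sprr2 genes and Ppbp showed no called difference between 24 h and 6 h. For Sprr2d the difference was -0.44 ± 0.51 (adjusted p = 0.585), with levels of 9.18 and 10.61 at 6 h, and for Ppbp it was -0.94 ± 0.36 (adjusted p = 0.119). S100a7a was lower at 24 h than at 6 h (-1.42 ± 0.36, adjusted p = 0.0351). Cdsn went the other way: it stood at 5.13 and 6.13 at 6 h and was 2.83 ± 0.29 higher at 24 h than then (adjusted p = 0.0015). Its signal on HGF 6 h array a was under the lowest detected there (5.92), so the size of that difference is uncertain. The genes of the squamous list thus had unlike courses.

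Cth and Trib3 stood highest at 24 h. Cth stood at 6.74 and 7.68 at 1 h and 6.30 and 7.70 at 6 h, near its control levels, and was 2.14 ± 0.17 higher at 24 h than at 6 h (adjusted p = 0.000941). Trib3 stood at 8.88 and 9.62 at 1 h and 7.16 and 8.61 at 6 h, and was 2.29 ± 0.21 higher at 24 h than at 6 h (adjusted p = 0.00124). The amino acid response list had a median change against control of 0.03 at 1 h, -0.65 at 6 h and 0.26 at 24 h.

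Of the 13 measured secretory and brush border genes 9 were lower at 24 h than at 6 h and 0 higher, against 9.28% and 9.96% of all genes. Gkn2, which was not on the list, differed by -3.45 ± 0.17 (adjusted p = 0.000422). Of the list's members, the difference was -1.35 ± 0.18 for Tff3 (adjusted p = 0.00357), -1.35 ± 0.11 for Cdhr5 (adjusted p = 0.000921) and -1.60 ± 0.17 for Vil1 (adjusted p = 0.00181). The median change of the list against control was 0.12 at 1 h, -0.03 at 6 h and -0.64 at 24 h. The mitosis list had medians of -0.82 at 1 h, -1.16 at 6 h and 0.00 at 24 h.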

How the data were processed

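Starting values were the summary signal, a linear intensity per probe and array that was neither background subtracted nor normalised between arrays as deposited, and the detection p-value that the authors deposited beside it. The submitters' processing notes name GenomeStudio 1.9.0, and their other steps are not given in the sources used here. An alternative started from the authors' deposited table of normalized intensity.

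Probes were named through the platform annotation: 23978 had 1 symbol, 0 several and 1719 none, and 23962 matched a current mouse gene by identifier with 0 symbols changed. In limma 3.58.1 (R 4.3.3), intensity was corrected by normexp from the detection p (offset 16), quantile normalised and put on the log2 scale. Each gene was read by its brightest probe among those detected (p under 0.05) on both arrays of a group, which gave 8183 genes in the fit, and probes of Tm9sf2 were called in opposite directions. lmFit and eBayes were run over all 8 arrays with the replicate letter as a block (3 residual degrees of freedom), p-values were adjusted by Benjamini-Hochberg over the 8183 genes, and the same fit gave the differences between times. For a gene undetected on both arrays of a group, an "at least" fold sets the mean of the brighter group against the dim one's, each dim array entering at the lowest signal detected on it unless the gene's own was above that. The script was tested on simulated data.

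Pairing by letter follows from the labels' statement that the whole run was repeated. That a letter marks 1 run in every group is implied and not stated. The a minus b differences correlated across genes at 0.397 between HGF 24 h and control, and at 0.193 to 0.454 over all pairs of groups.

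The comparison, its block, the 39 gene lists, the rule for named genes and the motifs were chosen with earlier results of these data known, among them that the fit without the block calls no gene. Named were the 12 steepest called rises and falls with groups apart, up to 5 members of smallest p per list, and genes of a fixed set, except some omitted to save space. Areg and Ccnb1 of that set had no named probe, and Csf2, Mmp10 and Plau were not detected on both arrays of either group. Picked with their values in view, and so outside this rule, were Sprr2a1, Krt14, Atf4, Slc7a11, Asns, Gkn1, Lcn2, Krt8 and Krt18, the genes at the edges of the thresholds, and those of the closing part. Timp2 and Pdgfb, called but not among the 5 of smallest p in their lists, were outside it too. The fits that left out an array were not examined for either. Synonyms were used only for listed symbols that name no current gene.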

Additional observations from a re-analysis of the deposited data

Results flagged for a closer look

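Some genes called at 24 h were called in the opposite direction at an earlier time, with the difference between the times past the threshold of the same limma fit. All times share the control arrays. Against 6 h, Mmp3 was -1.88 at 24 h and 5.09 at 6 h (log2 changes against control), and Gkn2 was -2.55 and 0.90. Higher at 24 h and lower at 6 h were Cdsn (1.73 and -1.09), Trib3 (1.07 and -1.22), Ciart (0.85 and -1.60), Htra1 (0.75 and -0.37) and Slc6a9 (0.55 and -1.21). Cdsn was below background on HGF 6 h array a, so the size of its fall at 6 h is uncertain. Adjusted p-values of these differences ran from 4.22e-05 for Mmp3 to 0.0015 for Cdsn and Htra1.

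Lower at 24 h and higher at 1 h were Mmp3 (-1.88 and 2.74), Gkn2 (-2.55 and 1.16), Sult1a1 (-1.81 and 0.78), Sox9 (-1.31 and 1.22), Vil1 (-1.27 and 0.83), Ctsh (-1.11 and 0.53) and Jund (-0.65 and 0.55). Adjusted p-values of the differences ran from 6.82e-05 for Mmp3 to 0.00226 for Jund.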

How the results depend on the processing

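Counts are given as higher, lower, at least 2-fold higher and at least 2-fold lower, and were 160, 269, 30 and 70. With no replicate block they were 0, 0, 0 and 0, as they were with only the 4 arrays of HGF 24 h and control and no block (1611 and 1645 genes at an unadjusted p under 0.05). With those 4 arrays and the block they were 395, 659, 40 and 82. Without background correction they were 318, 493, 13 and 38, and with the authors' normalized values the counts were 326, 502, 14 and 38. With no detection filter they were 57, 110, 19 and 58, and with trended, robust moderation 379, 549, 35 and 75. Without normalization between arrays, 51 genes were at least 2-fold higher. Leaving out each replicate in turn gave 0 to 76 higher, 0 to 138 lower, 0 to 25 and 0 to 67. Without control replicate b or HGF 24 h replicate a all counts were 0, without control replicate a 7 and 38 genes were called, and without HGF 24 h replicate b 2 and 13. Median scaling, offset 50, detection p under 0.01, adjustment over the described genes and the mean of probes kept every count within 1.5 times. No call named by the rule changed direction under any of these settings. Cdhr5, Cmbl, Cth, Cyp4f14, Fhl1, Gkn2, Lypd2, Prelp and Sult1a1 were the genes named by the rule that were called in 6 of 8 fits that left out an array. The slide was not run as a block because the headers name none. Signal near background limits genes such as Gap43, Lypd2 and Igfbp3 to lower bounds. The cause of the differences between settings was not tested.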

Other observations

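Most called genes belonged to none of the lists: they were outside for 126 of 160 higher genes and for 227 of 269 lower genes. The genes below were chosen from them after their values were seen. Several lower genes are known from mucosal and glandular epithelium. The galectin gene Lgals4 stood at 11.53 and 11.30 in HGF, against 13.00 and 12.69 in control cells (-1.43 ± 0.12, adjusted p = 0.00568). Its relative Lgals2 gave -1.10 ± 0.11 (adjusted p = 0.00794), the tetraspanin Tspan8 -1.03 ± 0.16 (adjusted p = 0.025) and the surface antigen gene Psca -1.29 ± 0.17 (adjusted p = 0.0173). Enzyme genes were also among the falls. Glul, the gene of glutamine synthetase, stood at 7.01 and 6.63 in HGF, against 8.48 and 8.48 in control cells (-1.66 ± 0.18, adjusted p = 0.0106). The prostaglandin D synthase gene Ptgds gave -1.61 ± 0.16 (adjusted p = 0.00794), and the cytochrome genes Cyp1b1 and Cyp4b1 -1.49 ± 0.27 (adjusted p = 0.0357) and -1.45 ± 0.11 (adjusted p = 0.00488).

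Neighbouring chemokine genes on chromosome 5 moved in opposite directions. Pf4, the gene of platelet factor 4, stood at 6.73 and 5.98 in HGF, against 8.20 and 7.50 in control cells (-1.49 ± 0.17, adjusted p = 0.0116), while its neighbour Ppbp rose (2.25 ± 0.36, adjusted p = 0.027). Among the rises outside the lists were Mcu, the gene of the mitochondrial calcium uniporter (1.27 ± 0.13, adjusted p = 0.00862), Msn, which encodes the membrane to actin linker moesin (1.17 ± 0.23, adjusted p = 0.0419), and the ligand gene Wnt7a (1.01 ± 0.14, adjusted p = 0.0208).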
